A study of Mus musculus with 4 samples.

Results

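The endoplasmic reticulum (ER) unfolded protein response was followed through 10 genes in the murine triple-negative breast cancer line 4T1. The 10 genes were taken by symbol from the deposited expression matrix, 10 of its 49585 genes, by a rule that uses no measured value, although the choice was made with earlier results of these data known. They are the stress sensor Ern1, the sensor and transcription factor Atf6, the transcription factor Xbp1, the chaperones Hspa5, Hsp90b1 and Calr, the disulfide isomerase Pdia4, the co-chaperone Dnajb9, and Herpud1 and Edem1 of ER-associated degradation. Bulk RNA-seq compared 2 clones, each grown from 1 single 4T1 cell, one highly metastatic (4T1-HM) and one lowly metastatic (4T1-LM). HM_Ctrl and LM_Ctrl received DMSO, HM_DFX and LM_DFX received 50 μmol/L of the iron chelator deferasirox (DFX) dissolved in DMSO, and all cultures were grown for 48 h. The labels give no genetic change and no other agent, and they give only these 2 clones, so that a difference between them cannot be told apart from a difference between any pair of 4T1 clones.

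In the ER, secreted and membrane proteins fold with the help of the Hsp70-type chaperone encoded by Hspa5 (BiP). When unfolded proteins accumulate, BiP leaves 3 membrane sensors, namely IRE1 (Ern1), ATF6 and PERK (Eif2ak3). IRE1 splices the mRNA of Xbp1 into the form that encodes an active factor, ATF6 is cleaved to release its own factor, and PERK phosphorylates the translation factor eIF2α, which favours synthesis of ATF4. The released factors raise chaperones, folding enzymes and the machinery that sends misfolded proteins back to the cytosol for degradation. Gene-level RNA values are summed over all transcripts of a gene, and therefore show neither the splicing of Xbp1 nor the cleavage of ATF6.

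Each condition held 1 library, so that no difference below has a replicate check, none was tested, and no p-value is given. The 4 libraries held between 14363065 and 21883853 fragments (read pairs counted on genes), as recovered from the deposited values. The values are FPKM, fragments scaled to gene length and library total, which compare genes per length. Expression was set at 1 FPKM in any of the 4 libraries, which 12669 genes met, all 10 genes among them. A fold is a ratio of FPKM and stands with its 95% counting interval, which covers counting error only and not the variation between cultures. Calls of higher or lower needed 2-fold on the scale of log2(FPKM + 1), where a difference is named log2 fold change, and the share of all expressed genes called in the same way is given as background.

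The response is known to act through short promoter sequences, and 4 of the 10 genes held a match. RefSeq promoters of build GRCm38.p6 (mm10), 300 bases from 250 before to 50 after the transcription start, were at hand for 9 of the 10 genes, with Atf6 as the missing entry. Both strands were searched for the ER stress response element ERSE (CCAAT and CCACG with any 9 bases between), read by ATF6 together with NF-Y, for its variant ERSE-II (ATTGG and CCACG with any 1 base between), for the core of the unfolded protein response element bound by XBP1 and ATF6 (TGACGTG), and for the element bound by ATF4 with C/EBP partners (TTGCATCA). ERSE was found in 0.119% of 32851 promoters, and among the 10 genes in Hspa5, Hsp90b1 and Calr. ERSE-II was found in 0.0365% of promoters and here in Herpud1. TGACGTG was found in 2.01% of promoters and here in Hspa5, and TTGCATCA in 0.895% and here in Herpud1. No match overlapped another. The ERSE and ERSE-II elements are printed on the strand of the motif, with the fixed letters in capitals. These letters are alike within a motif because they were searched for, and only the small letters can differ.
Hspa5 ERSE: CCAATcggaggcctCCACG
Hsp90b1 ERSE, upstream: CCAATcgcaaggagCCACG
Hsp90b1 ERSE, downstream: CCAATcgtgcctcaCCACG
Calr ERSE: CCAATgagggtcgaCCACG
Herpud1 ERSE-II: ATTGGgCCACG

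The same elements are shown in their promoters, the 250 bases before the RefSeq start of each gene, 5′ to 3′ on the strand of the gene, with all matches in capitals. The Hspa5 promoter lies at chr2:34771840-34772089 on the plus strand, that of Hsp90b1 at chr10:86705445-86705694 on the minus strand, that of Calr at chr8:84846932-84847181 on the minus strand and that of Herpud1 at chr8:94386179-94386428 on the plus strand. A match is a description of letters, not a site shown to be bound.
Hspa5: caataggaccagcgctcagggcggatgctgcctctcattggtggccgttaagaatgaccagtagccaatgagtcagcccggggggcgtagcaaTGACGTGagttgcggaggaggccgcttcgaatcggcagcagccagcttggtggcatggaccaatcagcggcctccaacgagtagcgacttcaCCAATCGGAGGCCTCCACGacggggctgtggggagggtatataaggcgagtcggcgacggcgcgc
Hsp90b1: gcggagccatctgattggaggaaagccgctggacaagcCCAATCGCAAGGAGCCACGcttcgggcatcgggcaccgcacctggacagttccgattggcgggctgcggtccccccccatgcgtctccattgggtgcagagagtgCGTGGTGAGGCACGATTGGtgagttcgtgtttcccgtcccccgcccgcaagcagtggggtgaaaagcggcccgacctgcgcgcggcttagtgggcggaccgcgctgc
Calr: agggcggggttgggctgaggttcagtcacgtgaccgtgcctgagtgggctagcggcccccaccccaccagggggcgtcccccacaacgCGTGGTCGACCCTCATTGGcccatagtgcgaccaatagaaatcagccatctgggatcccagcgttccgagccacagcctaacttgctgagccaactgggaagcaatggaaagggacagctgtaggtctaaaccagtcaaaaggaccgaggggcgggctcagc
Herpud1: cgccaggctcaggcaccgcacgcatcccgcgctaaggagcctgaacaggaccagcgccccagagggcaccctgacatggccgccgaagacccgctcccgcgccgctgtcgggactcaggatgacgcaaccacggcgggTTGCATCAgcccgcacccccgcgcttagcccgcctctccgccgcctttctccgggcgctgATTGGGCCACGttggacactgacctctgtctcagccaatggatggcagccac

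The map of matches shows where these elements stand. The ERSE of Hspa5 began 65 bases before the start, those of Hsp90b1 212 and 107 bases before it, and that of Calr 162 bases before it, the last one and the one at 107 bases on the opposite strand. The ERSE-II of Herpud1 began 52 bases before the start and its TTGCATCA 112 bases before it. The windows of Ern1, Xbp1, Pdia4, Dnajb9 and Edem1 held none of the 4 sequences.

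**Figure D1:**
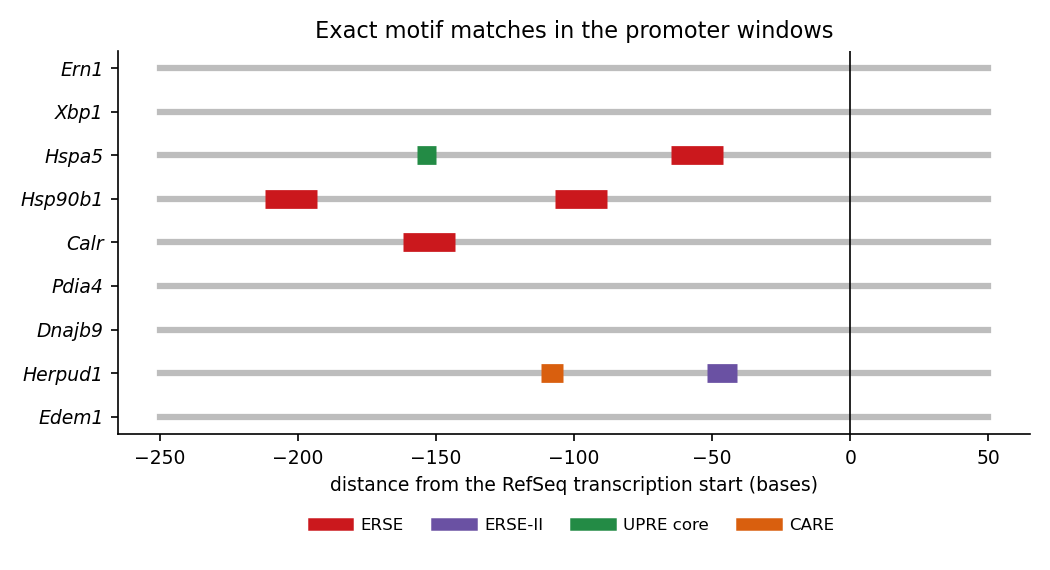
Exact matches of 4 motifs in the promoter windows of 9 genes, against the distance from the RefSeq transcription start in bases (grey bars are the windows searched, from 250 before to 50 after the start). Hspa5, Hsp90b1, Calr and Herpud1 hold matches, all of them upstream of the start.

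The action of the chelator and the cell identity were read before the 10 genes. Tfrc, the transferrin receptor whose mRNA is stabilised when iron is low, had an FPKM of 102 in untreated and 175 in treated HM, against 107 in untreated and 188 in treated LM. Ndrg1, a known chelator-responsive gene, went from 177 to 577 in HM and from 49.1 to 613 in LM. All 5 epithelial markers (Epcam, Cdh1, Krt8, Krt18, Krt19) were expressed, and their summed FPKM was 1587 before and 531 after DFX in HM, and 2069 and 1024 likewise in LM. Of 4 leukocyte markers (Ptprc, Cd3e, Adgre1 and Cd68) only Cd68, which encodes a protein of late endosomes and lysosomes, reached an FPKM of 1, and the summed level of that list ranged from 12.3 to 83.1, nearly all of it Cd68, with the highest value in LM_DFX. Ptprc was at or below 0.0139, and Cd3e and Adgre1 were at 0 in every library. None of 4 endothelial markers was expressed (summed FPKM at most 0.203), and of 4 fibroblast markers only Pdgfra was, with a summed level between 3.49 and 5.63 and Lum at 0. Of the epithelial markers 4 were called lower in HM under DFX, and in LM 1 was called lower and 1 higher. The part of these marker shifts in the results below was not tested.

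After DFX, Dnajb9, Hspa5 and Atf6 were called higher in both clones. In HM_DFX against HM_Ctrl the log2 fold change ranged from 0.04 for Ern1 to 2.96 for Dnajb9, and 4 of the 10 genes (Dnajb9, Hspa5, Atf6 and Xbp1) were called higher, where 6.93% of all expressed genes were, with 19.3% called in either direction. In LM_DFX against LM_Ctrl the values ranged from −0.62 for Calr to 2.48 for Dnajb9, and 4 genes (Dnajb9, Atf6, Herpud1 and Hspa5) were called higher, against 7.09% of all expressed genes. None was called lower in either clone, against a background of 12.4% in HM and 8.72% in LM. The median of the 10 genes was 0.88 in HM and 0.50 in LM, while the median of all expressed genes was −0.10 and −0.04. Median-ratio scaling shifts the HM median of all genes to 0.00 and that of the 10 genes to 1.01, and it changes the calls over all genes from 878 higher and 1568 lower to 1128 higher and 1280 lower. The comparisons of the clones share no library, and the values of each stand side by side below.

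**Figure D2:**
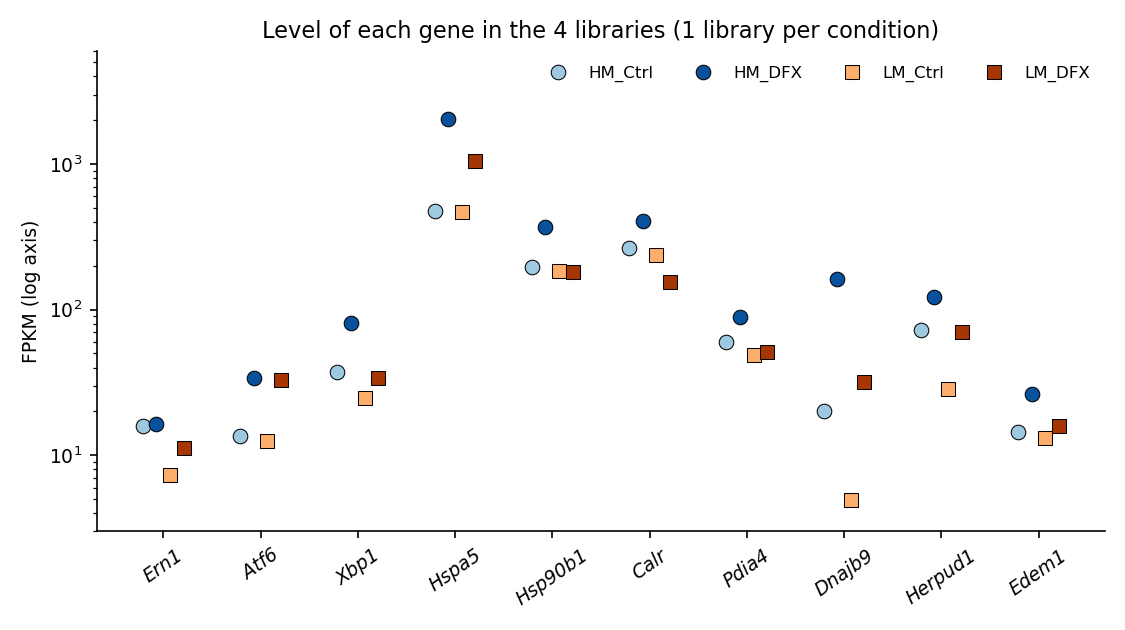
FPKM (log axis) of the 10 genes in each of the 4 libraries, 1 point per library, circles for HM and squares for LM, with DFX in the darker colour. Hspa5 is the most abundant gene in every library, from 470 to 2053, and HM_DFX has the highest value for all 10 genes.

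The sensors differed from one another. Ern1 (ENSMUSG00000020715, chromosome 11 from 106394650 to 106487852 of mm10, minus strand) encodes IRE1, the kinase and RNase that splices Xbp1. Its FPKM was 15.9 without and 16.3 with DFX in HM, and 7.32 without and 11.2 with DFX in LM, so that HM was level at 1.03-fold (0.969 to 1.10) and LM was higher at 1.53-fold (1.41 to 1.65) without reaching the call. Atf6 (ENSMUSG00000026663, chromosome 1 from 170704674 to 170867771, minus strand) had nearly equal levels in both clones before and after DFX, with 13.5 in untreated and 33.9 in treated HM, against 12.6 in untreated and 32.7 in treated LM. It rose 2.51-fold (2.38 to 2.64) in HM and 2.60-fold (2.47 to 2.74) in LM. Atf6 was the only one of the 10 genes whose fold in HM and fold in LM were within counting error of each other. Eif2ak3, which encodes PERK, the remaining sensor, rose in both clones, from 7.07 to 25.9 in HM and from 2.94 to 12.9 in LM, by 1.74 and 1.82 on the log2 scale. It was the only one of 6 other expressed sensor and factor genes called in either clone. That is 16.7% in each clone, near the 19.3% of all expressed genes called in either direction in HM and the 15.8% in LM.

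Xbp1 (ENSMUSG00000020484, chromosome 11 from 5520659 to 5525893, plus strand) encodes the factor that IRE1 activates by splicing. Its FPKM was 37.5 before and 81.2 after DFX in HM, and 24.8 and 34.1 likewise in LM. It rose 2.16-fold (2.05 to 2.29) in HM and was 1.38-fold higher (1.29 to 1.47) in LM, short of the call. Both HM libraries stood above both LM libraries. Unspliced and spliced Xbp1 mRNA are summed in these values.

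Hspa5 (ENSMUSG00000026864, chromosome 2 from 34771970 to 34777547, plus strand), which encodes BiP, was the most abundant of the 10 genes in every library. Its FPKM was 472 without and 2053 with DFX in HM, and 470 without and 1051 with DFX in LM. The untreated clones were within counting error at 1.01-fold (0.990 to 1.02), and under DFX the gene rose 4.34-fold (4.29 to 4.40) in HM and 2.24-fold (2.21 to 2.27) in LM. By FPKM it moved from rank 72 to rank 5 of the 12669 expressed genes in HM and from rank 75 to rank 31 in LM. Its fragments were 0.200% of the HM library without DFX and 0.868% with it, and 0.199% and 0.444% of the LM libraries. Hspa5 made up 40.5% of the summed FPKM of the 10 genes in HM_Ctrl and 61.0% in HM_DFX, with 45.4% and 64.4% in LM. Since RNA was measured in bulk, a change in the number of cells that express a gene and a change in its RNA per cell cannot be told apart.

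Among the 10 genes, the other chaperone genes with ERSE in the promoter, Hsp90b1 and Calr, had smaller folds than Hspa5 in both clones. Hsp90b1 (ENSMUSG00000020048, chromosome 10 from 86690209 to 86705509, minus strand) encodes GRP94, the Hsp90 of the ER. Its FPKM was 196 in untreated and 372 in treated HM, against 186 in untreated and 180 in treated LM, a fold of 1.90 (1.86 to 1.94) in HM and 0.970 (0.947 to 0.993) in LM. HM_DFX held the highest level, and the sign in LM turned to a log2 fold change of 0.01 under median-ratio scaling, which also brought the HM value to 1.06 and past the call. For Hsp90b1, 12.3% of the 31-base stretches of its transcripts also occur in another gene, and other genes overlap 5.38% of its exon bases on the same strand and 10.3% on the opposite strand. Calr (ENSMUSG00000003814, chromosome 8 from 84841850 to 84846934, minus strand) encodes calreticulin, the lectin chaperone that binds calcium and glycoproteins. Its FPKM was 264 before and 406 after DFX in HM, and 239 and 155 likewise in LM. Calr was 1.54-fold higher (1.502 to 1.57) in HM_DFX and stood at 0.647 times its control (0.630 to 0.665) in LM_DFX, the lowest ratio among the 10 genes, and neither value reached the call. The ratio of Hspa5 to Hsp90b1 went from 2.41 to 5.52 in HM and from 2.53 to 5.84 in LM, and that of Hspa5 to Calr from 1.79 to 5.06 in HM and from 1.97 to 6.80 in LM.

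Pdia4 (ENSMUSG00000025823, chromosome 6 from 47796141 to 47813430, minus strand), also known as ERp72, forms and rearranges disulfide bonds. Its FPKM was 59.9 without and 88.4 with DFX in HM, and 48.9 without and 50.97 with DFX in LM. The fold was 1.48 (1.398 to 1.56) in HM and 1.04 (0.983 to 1.11) in LM, so that in LM no change was detectable at this depth. Both HM libraries stood above both LM libraries.

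Dnajb9 had the largest fold under DFX among the 10 genes in both clones. Dnajb9 (ENSMUSG00000014905, chromosome 12 from 44205897 to 44210068, minus strand) encodes ERdj4, a co-chaperone of BiP that takes part in degradation and restrains IRE1. Its FPKM was 20.1 in untreated and 163 in treated HM, against 4.91 in untreated and 32.0 in treated LM, from 627, 4371, 144 and 1304 fragments. It rose 8.13-fold (7.47 to 8.85) in HM and 6.51-fold (5.48 to 7.79) in LM, the rise of rank 24 in HM and of rank 96 in LM among all expressed genes. Of its 31-base stretches, 10.8% also occur in another gene. Dnajb9 was at its lowest in LM_Ctrl and at its highest in HM_DFX, and each HM library stood above the LM library of the same treatment.

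Herpud1 and Edem1 act in ER-associated degradation. Herpud1 (ENSMUSG00000031770, chromosome 8 from 94386438 to 94395377, plus strand) encodes a membrane protein of the ubiquitin ligase complex that extracts misfolded proteins. Its FPKM was 73.0 before and 123 after DFX in HM, and 28.3 and 69.9 likewise in LM, so that LM_DFX reached about the level of untreated HM. It rose 2.47-fold (2.31 to 2.65) in LM and was 1.69-fold higher (1.61 to 1.77) in HM, short of the call. Edem1 (ENSMUSG00000030104, chromosome 6 from 108828641 to 108859356, plus strand) encodes a mannosidase-like protein that marks misfolded glycoproteins. Its FPKM was 14.4 without and 26.5 with DFX in HM, and 13.2 without and 15.8 with DFX in LM, a fold of 1.84 (1.72 to 1.96) in HM and 1.20 (1.12 to 1.29) in LM, neither of them called.

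**Figure D3:**
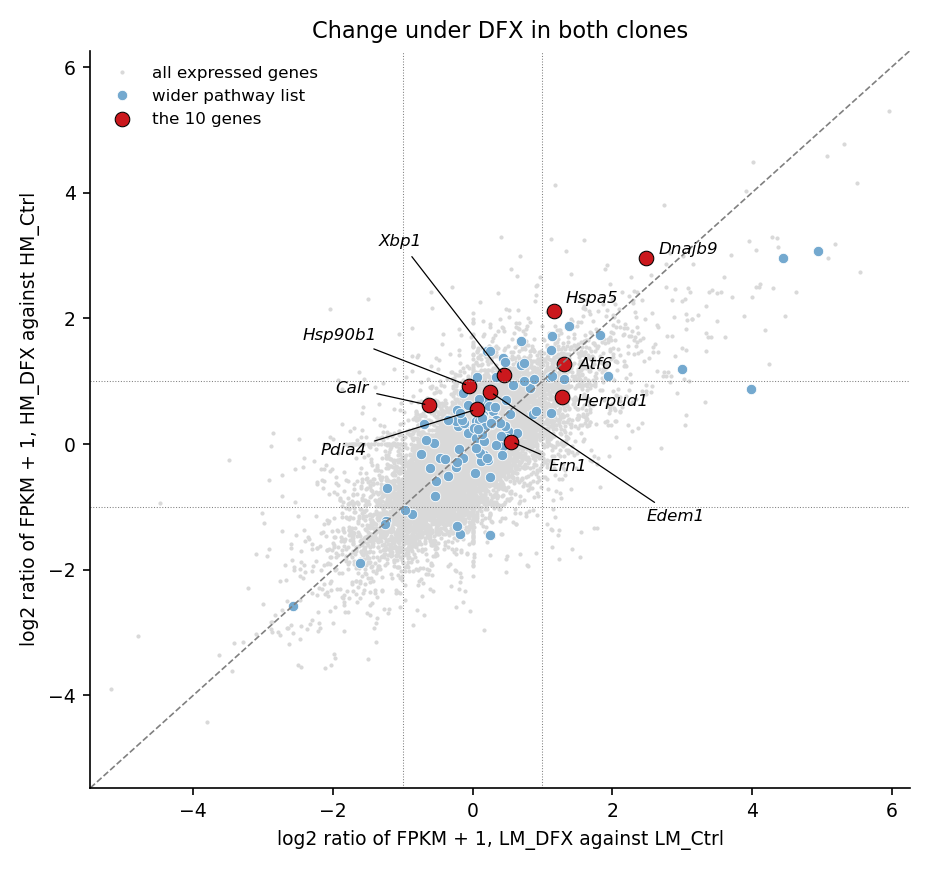
Log2 ratio of FPKM + 1 under DFX in HM (vertical) against that in LM (horizontal) for all 12669 expressed genes (grey), the wider pathway list (blue) and the 10 genes (red), with dotted lines at 2-fold and a dashed line of equal change. Dnajb9, Hspa5 and Atf6 are past 2-fold in both clones, Calr lies left of 0, and Herpud1 and Ern1 lie furthest below the dashed line among the 10.

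Without drug, the clones were compared to see whether the response already differed in the cells of high metastatic capacity. In HM_Ctrl against LM_Ctrl 3 of the 10 genes were called higher, against 3.65% of all expressed genes, and none was called lower, against 3.15%. These were Dnajb9 at 4.09-fold (3.41 to 4.94), Herpud1 at 2.58-fold (2.40 to 2.77) and Ern1 at 2.17-fold (2.01 to 2.34), the last of them with a log2 fold change of 1.02, just past the threshold. Xbp1 was 1.51-fold higher (1.41 to 1.63). The abundant chaperones were nearly level, with Hspa5 at 1.01-fold, Hsp90b1 at 1.05-fold (1.03 to 1.08) and Calr at 1.11-fold (1.08 to 1.13). The median log2 fold change of the 10 genes was 0.22, beside 0.01 for all expressed genes.

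Under DFX, the FPKM in HM was above that in LM for all 10 genes, though for Atf6 only within counting error. The median log2 fold change of the 10 genes was 0.89, beside −0.05 for all expressed genes. In HM_DFX against LM_DFX 4 of the 10 genes were called higher, against 3.31% of all expressed genes, and none was called lower, against 5.05% (8.36% in either direction). Dnajb9 was 5.11-fold higher (4.80 to 5.44), which is rank 12 among all expressed genes in this comparison, and Calr 2.63-fold (2.56 to 2.69), Xbp1 2.38-fold (2.26 to 2.51) and Hsp90b1 2.07-fold (2.02 to 2.11) higher. Hspa5 was 1.95-fold higher (1.94 to 1.97), just below the call. Atf6 was level at 1.04-fold (0.997 to 1.08). This comparison shares its libraries with those above, and its values are not independent of them.

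How far the response to DFX differed between the clones was read as the fold in HM divided by the fold in LM. Calr had the largest ratio at 2.38 (2.29 to 2.46), followed by Hsp90b1 at 1.96 (1.90 to 2.02) and Hspa5 at 1.94 (1.91 to 1.98). These were the 3 genes with an exact ERSE match among the 9 promoters searched, and a link of the match to this order was not tested. Xbp1 stood at 1.57 (1.44 to 1.71), Edem1 at 1.53 (1.39 to 1.67), Pdia4 at 1.41 (1.31 to 1.53) and Dnajb9 at 1.25 (1.03 to 1.51). Atf6 was level at 0.965 (0.896 to 1.04), and Herpud1 at 0.682 (0.627 to 0.742) and Ern1 at 0.674 (0.611 to 0.744) had the smaller fold in HM. Neighbours in this order overlapped in their counting intervals, apart from Calr above Hsp90b1, Hspa5 above Xbp1 and Atf6 above Herpud1. On the log2 scale 1 of the 10 genes, Calr at 1.24, had a response larger in HM by 2-fold, against 3.52% of all expressed genes. Herpud1 and Ern1, with the smaller response in HM, were also 2 of the 3 genes called higher in untreated HM, and both readings use the control libraries.

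**Figure D4:**
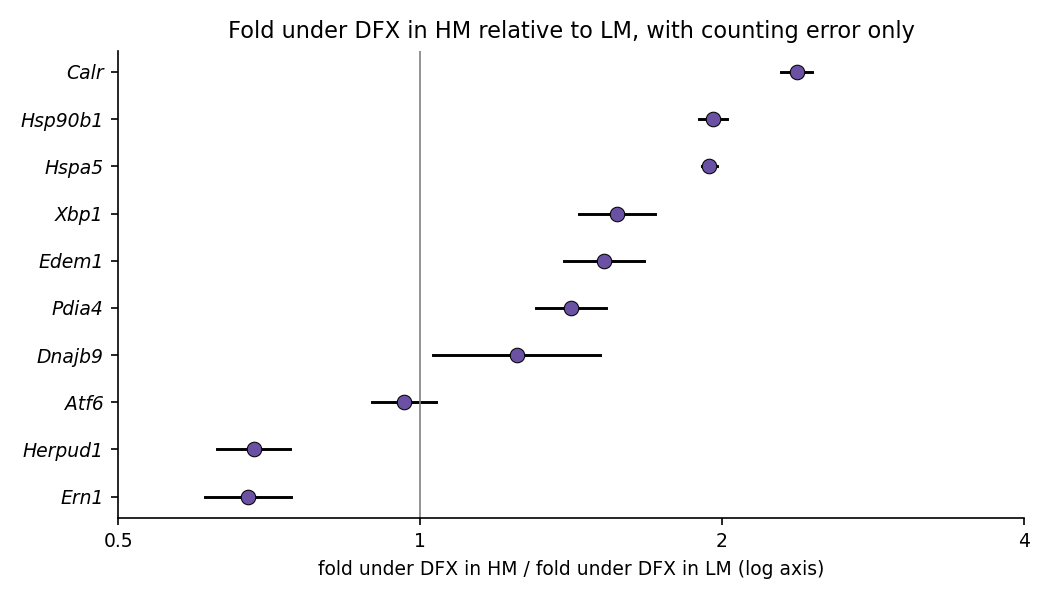
Fold under DFX in HM divided by fold under DFX in LM for each of the 10 genes (log axis), with bars for the 95% counting interval, which leaves out variation between cultures. Calr, Hsp90b1 and Hspa5 lie near or above 2, Atf6 spans 1, and Herpud1 and Ern1 lie below 1.

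The other genes of the pathway were read from 8 lists written from general knowledge, with 113 genes besides the 10, of which 108 were expressed. In HM_DFX against HM_Ctrl 23 of the 108 (21.3%) were called higher and 9 (8.33%) lower, beside 6.93% and 12.4% of all expressed genes, and the median log2 fold change was 0.35. In LM_DFX against LM_Ctrl 13 (12.0%) were called higher and 5 (4.63%) lower, beside 7.09% and 8.72%, with a median of 0.16. Both clones called 11 of them higher, which is 47.8% of those of HM and 84.6% of those of LM, while over all expressed genes 438 were called higher in both, 49.9% of those of HM and 48.8% of those of LM. Against LM_Ctrl, HM_Ctrl had 8 of these genes (7.41%) called higher and 2 (1.85%) lower, beside 3.65% and 3.15%, and HM_DFX against LM_DFX gave the same counts, beside 3.31% and 5.05%.

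Chaperones and co-chaperones beyond the 10 genes numbered 21. In HM 5 (23.8%) were called higher and 2 (9.52%) lower, beside 6.93% and 12.4% of all expressed genes. In LM 1 (4.76%) was called higher and 2 (9.52%) lower, beside 7.09% and 8.72%. Those called higher in HM were Sdf2l1, Serp1, Manf, Creld2 and Hyou1, and besides Dnajc10 those called lower were Fkbp11 in HM and Mogs in LM. The largest rise in both clones was in Sdf2l1, a stress-induced partner of BiP, from 16.6 to 56.9 in HM and from 17.6 to 39.9 in LM. The largest fall in both was in Dnajc10, an ER disulfide reductase with a J domain, from 31.7 to 13.0 in HM and from 36.5 to 14.8 in LM. Manf, Creld2 and Hyou1 were named like Serp1, Fkbp11 and Mogs after their values were seen and had a response larger in HM by at least 2-fold. Over the wider list 4 of the 108 genes (3.70%) had a response larger in HM by 2-fold and 7 (6.48%) a smaller one. The shares of all expressed genes were 3.52% and 5.38%. Manf went from 45.7 to 129 in HM and from 45.3 to 52.6 in LM, Creld2 from 26.9 to 76.6 and from 30.4 to 36.2, and Hyou1 from 28.5 to 60.8 and from 25.02 to 26.1.

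Among the 13 other disulfide enzymes 3 (23.1%) were called higher and 1 (7.69%) lower in HM, beside 6.93% and 12.4% of all expressed genes. In LM 2 (15.4%) were called higher and none lower, beside 7.09% and 8.72%. The largest rise in HM was in the isomerase Pdia5, from 7.37 to 20.7, and the largest fall in the sulfhydryl oxidase Qsox1, from 13.1 to 4.22. In LM the largest rise was in Ero1l, the oxidase that recharges disulfide isomerases and a known hypoxia-inducible gene, from 31.4 to 258, while HM went from 87.7 to 201. P4hb, which encodes the main disulfide isomerase and was chosen after its values were seen, was also called higher in both clones. For Ero1l the log2 response was lower in HM by 1.81, the opposite order to Hsp90b1 and Calr. Of 22 expressed genes of ER-associated degradation besides Herpud1 and Edem1, 7 (31.8%) were called higher and 1 (4.55%) lower in HM, beside the same background. In LM 4 (18.2%) were called higher (Ube2g2, Ngly1, Derl1 and Sel1l, the last 3 chosen after their values were seen) and 1 (4.55%) lower. The largest rise in both was in the ubiquitin-conjugating enzyme gene Ube2g2, from 17.5 to 67.1 in HM and from 17.4 to 46.9 in LM, and the fall in both was in the ubiquitin ligase gene Rnf5, from 21.1 to 8.17 and from 21.2 to 8.29.

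Protein entry into the ER and exit from it were read from a list each. Of 21 genes of translocation and glycosylation 2 were called higher in HM, where 6.93% of all expressed genes were, and none in LM, namely Sec11a of the signal peptidase (chosen after its values were seen) and, with the larger rise, Sec61a1 of the translocation channel, from 25.6 to 54.8 in HM and from 29.99 to 38.1 in LM. Of 13 genes of COPII vesicles, which carry cargo out of the ER, 1 was called higher in HM and none in LM. The share in HM, 7.69%, was near the 6.93% of all expressed genes, and 7.09% of all expressed genes were called higher in LM. The gene called was the coat gene Sec24d, from 12.0 to 31.3 in HM and from 13.9 to 19.6 in LM. No gene of either list was called lower, beside 12.4% of all expressed genes in HM and 8.72% in LM.

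The list of the PERK arm held Atf4 itself and targets of ATF4, most of them regulators of translation, amino acid supply or cell death. Its median response was larger in LM. Of its 8 genes 4 (Atf3, Ppp1r15a, Asns and Trib3) were called higher and 1 (Chac1) lower in HM, beside 6.93% and 12.4% of all expressed genes. In LM 5 (the same 4 and Ddit3) were called higher, beside 7.09%. The medians were 0.98 in HM and 1.53 in LM. Ddit3, which encodes the factor CHOP, had an FPKM of 79.8 in untreated and 148 in treated HM, against 6.05 in untreated and 111 in treated LM. Atf3 went from 44.996 to 385 in HM and from 5.05 to 184 in LM, and Atf4 itself from 360 to 521 and from 263 to 495. Chac1, which encodes a glutathione-degrading enzyme, fell in HM from 154 to 55.8 and was 35.3 and 42.1 in LM. Without drug 6 of the 8 were called higher in HM than in LM, beside 3.65% of all expressed genes. LM_Ctrl held the lowest level of each of the 8 genes, though Asns was nearly the same in HM_Ctrl (57.5 against 57.8). Under DFX the log2 response was lower in HM by 2-fold for 4 of the 8 (Ddit3, Ppp1r15a, Chac1 and Atf3), where 5.38% of all expressed genes were. The response and the untreated difference both use the control libraries. In HM_DFX against LM_DFX all 8 genes stood higher in HM, with a median of 0.40. Of these, 2 were called higher and none lower, beside 3.31% and 5.05% of all expressed genes.

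IRE1 also degrades other mRNAs at the ER membrane. Of 6 known targets of this decay 4 were expressed, and all 4 were called lower in HM and 2 of them in LM, where 12.4% and 8.72% of all expressed genes were. The largest fall in both clones was in Scara3, a scavenger receptor gene, from 16.3 to 1.90 in HM and from 25.7 to 3.48 in LM, with 93 and 259 fragments left. The others called lower in HM were the matrix protein genes Sparc and Col6a1 and the lysosomal enzyme gene Hgsnat, and in LM it was Sparc, all named after their values were seen. Bloc1s1, the target used most often as a readout, was below the filter in every library, with 17 fragments in untreated and 10 in treated HM, and 8 and 2 in LM. At this depth it gives no usable reading.

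**Figure D5:**
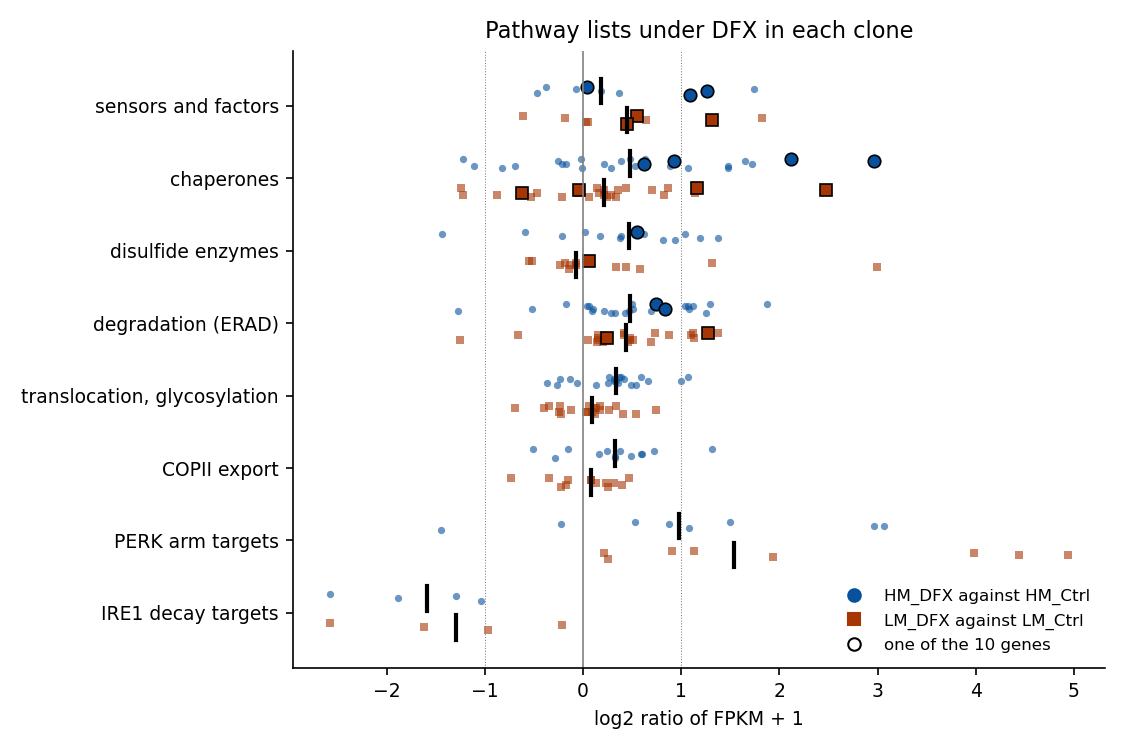
Log2 ratio of FPKM + 1 under DFX for the expressed genes of 8 pathway lists, blue circles for HM and brown squares for LM, with black bars for the median and black outlines for the 10 genes. The medians of PERK arm targets (1.53 against 0.98) and of sensors and factors (0.45 against 0.18) are higher in LM, those of the chaperone, disulfide, degradation, translocation and export lists are higher in HM, and the IRE1 decay targets lie below 0 in both. Without the 10 genes the sensor and factor medians are nearly equal, at 0.05 in HM and 0.04 in LM. Those of degradation are then 0.45 and 0.44.

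The promoter match could be set beside the response over the whole table, since the match uses no expression value. Of the genes with ERSE in a promoter 16 were expressed. In HM_DFX against HM_Ctrl 5 of them (31.25%) were called higher and none lower, beside 6.93% and 12.4% of all expressed genes. Their median log2 fold change was 0.68 beside −0.10 for all expressed genes. In LM_DFX against LM_Ctrl 2 (12.5%) were called higher and 1 (Hnrnpa3, an RNA-binding protein gene) lower, beside 7.09% and 8.72% of all expressed genes. The median was 0.02 beside −0.04. Without Hspa5, Hsp90b1 and Calr the medians over 13 genes were 0.53 in HM and 0.09 in LM, and 30.8% and 7.69% were called higher. Besides Hspa5, those called higher in HM were Creld2, the ubiquitin ligase gene Syvn1, the mannosyltransferase gene Alg12 and Pan2, and Alg12 was the other one called higher in LM, all named after their values were seen. Of 8 expressed genes with ERSE-II none was called in HM, and Herpud1 alone (12.5%) was called higher in LM. These sets were small, and the search was added with the responses known.

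The profile of Hspa5 over the 4 libraries was matched to those of 3938 other genes that code for protein and reached 10 FPKM in all 4 libraries. By Euclidean distance between log2(FPKM + 1) values, each centred on its own mean, the nearest 5 were Dot1l at 0.16, Spdl1 at 0.21, Ifrd1 at 0.31, Ube2g2 at 0.32 and Nfkbib at 0.38. Dot1l, a histone methyltransferase gene, had an FPKM of 11.3 before and 51.7 after DFX in HM, and 12.1 and 29.98 likewise in LM. Of the 10 genes Atf6 was the closest to Hspa5, at position 63, while Hsp90b1 was at position 437 and Calr at position 1559. With 4 libraries such a likeness is a description only, and Dnajb9 and Ern1 were below an FPKM of 10 in LM_Ctrl and could not enter.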

How the data were processed

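RNA of 4 cultures, 1 library each for HM_Ctrl, HM_DFX, LM_Ctrl and LM_DFX, was sequenced as paired-end reads from poly(A)-selected, directional libraries. Per the labels, the authors used FastQC, Trimmomatic, HISAT2 on build mm10 and featureCounts, with versions and the strand setting of the counting not given in the sources used here. They deposited FPKM for 49585 genes, unfiltered and not pooled. Without a stated strand setting, overlapping genes on opposite strands may share fragments.

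Samples were assigned by title and columns by description. Exon lengths came from GENCODE release M21, whose coordinates equal those of 45125 genes in the table. Each library total was solved so that FPKM times length gave whole fragments, and this held to within 0.02 in all 4 libraries for 96.8% of the 18235 genes above 0 among them. For Dnajb9, whose model differs, the shortest length that gave whole fragments was used. Intervals are exact conditional binomial ones at 95%, except those of a ratio of 2 folds, which are normal on the log scale. Neither covers variation between cultures. Ranks, calls and log2 fold changes used FPKM with a pseudocount of 1 and a call at 2-fold.

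The authors' edgeR test was not repeated, since 1 library per condition gives no estimate of spread. Alternatives were another pseudocount, other filters, scalings and thresholds, and protein-coding genes only. Shared sequence was the percent of 31-mers of a gene that occur in another gene of release M21. Genes named by rule besides the 10 were, per list, the largest rise and fall past 2-fold in each DFX comparison, Eif2ak3, Atf4, Ddit3, Tfrc, Ndrg1 and the 5 nearest profiles, and the others named were chosen after their values were seen. The 10 genes, the lists and the rules were chosen with earlier results of these data known. Ufd1 was matched as Ufd1l. The calling and the recovery of totals were checked on simulated data. Python 3.11.15, pandas 2.3.3 and scipy 1.17.1 were used. One further leukocyte marker is not reported here.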

Additional observations from a re-analysis of the deposited data

Results flagged for a closer look

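Hsp90b1 and Calr stood on opposite sides of their controls in the 2 clones under DFX, beyond counting error. For Calr the log2 fold change was 0.62 in HM and −0.62 in LM, a difference of 1.24. For Hsp90b1 it was 0.92 in HM and −0.04 in LM, a difference of 0.97, and the LM value turned to 0.01 under median-ratio scaling. Each response rests on 1 library per condition, and the difference was not tested.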

How the results depend on the processing

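Under median-ratio scaling the median log2 fold change of the 10 genes was 1.01 in HM_DFX against HM_Ctrl and 0.96 in HM_DFX against LM_DFX. Of 50 single-gene values 3 then changed sign, all near 0 (Hsp90b1 in LM under DFX, Hspa5 between the untreated clones, and the difference in response of Atf6), and 4 crossed 2-fold (Hsp90b1 in HM under DFX, Hspa5 in HM_DFX against LM_DFX, and the differences in response of both). Scaling to the 75th percentile moved only Hspa5 in HM_DFX against LM_DFX past 2-fold, and a pseudocount of 0.1 moved none of these 50 values past it. At 1.5-fold, 8 of the 10 genes were called in HM_DFX against HM_Ctrl and 8 in HM_DFX against LM_DFX, all of them higher. Of all expressed genes 16.0% and 9.95% were called higher in these 2 comparisons. In LM_DFX against LM_Ctrl 5 of the 10 genes were then called, 4 higher and 1 (Calr) lower. In LM_DFX against LM_Ctrl 33 of the 108 wider genes were called, 22 higher and 11 lower, beside 16.5% and 20.0% of all expressed genes. For HM_Ctrl against LM_Ctrl it was 17, with 12 higher and 5 lower, beside 10.5% and 8.70%. For HM_DFX against LM_DFX it was 25, with 19 higher and 6 lower, beside 9.95% and 14.6%. At 4-fold, 2 of the 10 genes were called in HM_DFX against HM_Ctrl, 1 in LM_DFX against LM_Ctrl, 0 in HM_Ctrl against LM_Ctrl and 1 in HM_DFX against LM_DFX, with 3, 5, 4 and 0 of the wider list. Of all expressed genes 0.876%, 1.42%, 0.332% and 0.284% were called higher in the same order, and 1.31%, 1.06%, 0.434% and 0.466% lower. Over all expressed genes in HM_DFX against HM_Ctrl, the 878 higher and 1568 lower calls became 1234 and 2397 with a pseudocount of 0.1, 2031 and 3297 at 1.5-fold and 111 and 166 at 4-fold, and the 898 and 1105 of LM_DFX against LM_Ctrl became 1349 and 1721 with that pseudocount, 2088 and 2528 at 1.5-fold and 180 and 134 at 4-fold. The 462 and 399 calls of HM_Ctrl against LM_Ctrl became 883 and 674 with a pseudocount of 0.1, 1329 and 1102 at 1.5-fold and 42 and 55 at 4-fold. The 419 and 640 of HM_DFX against LM_DFX became 810 and 1183, 1260 and 1848, and 36 and 59 under the same settings. The other counts and medians of the 10 genes and the wider list stayed within 1.5 times or within their counting error under the filters, scalings and pseudocount tried. No paired analysis was possible because each condition held 1 library, and leaving out a library would empty a condition. Depth limits little for the 10 genes, whose lowest count was 144 fragments for Dnajb9 in LM_Ctrl.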
